A study of Drosophila melanogaster with 6 samples.

Results

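HP2, encoded by Su(var)2-HP2, is a chromosomal protein of Drosophila melanogaster that binds HP1a, a core protein of fly heterochromatin. Mutations in its gene weaken the silencing of genes placed next to heterochromatin. The regions described here are all stretches called as enriched for HP2 on the assembled X sequence, without the separate heterochromatic scaffold XHet. They numbered 113 of 2488 regions in the list of ChIP replicate 1, 294 of 3132 in replicate 2 and 319 of 3190 in replicate 3. The combined list, made for the replicate set as a whole, held 654 on X out of 5179. Coordinates are those of FlyBase release 5, in which X is 22422827 bp long, with the telomere at the low-coordinate end and the centromere beyond the high-coordinate end.

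HP2 was mapped by ChIP-seq, which sequences the DNA that an antibody pulls down from crosslinked chromatin, here the antibody Ab2-90. The material was wild-type embryos of the Oregon-R strain (Oregon-R-modENCODE), aged 14 to 16 h and fixed with 1.8% formaldehyde. There were 3 HP2 ChIP libraries and 3 input libraries of the same strain, genotype and stage, and each ChIP list was called against the input of its own number. No treatment or mutant was compared. Embryos came from population cages, and the labels mention no sorting by sex or cell type, so the share of male embryos, which carry a single X, is unknown. The labels do not state that the replicates were separate collections, so their spread may be technical. The sources used here give no read totals, so the depth behind each region is unknown.

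The fly X has its centromere close to one end. Its assembled sequence is therefore a single long arm that runs from the telomere, which is built of retrotransposons and flanked by subtelomeric repeats, to the border of the pericentric heterochromatin. HP1a is known as a component of telomere caps as well as of pericentric heterochromatin. The border zone of the X is known for flamenco, a locus that gives rise to small RNAs against transposons.

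HP2 regions on X were short and scattered in all 4 lists. They covered 0.911% of X in replicate 1, 2.64% in replicate 2 and 2.73% in replicate 3, a mean of 2.10% ± 1.03 (SD, n = 3). The combined list covered 5.26%. Replicate 1 thus held a much smaller set than the other two, and its X regions covered 34.5% as many bases as those of replicate 2 and 33.4% as many as those of replicate 3. X was sparse against the genome, taken as 139.7 Mb without Uextra. The whole lists covered 4.87%, 9.33% and 8.53% of it in replicates 1, 2 and 3, and 12.5% in the combined list. Coverage of X was 0.187, 0.283, 0.320 and 0.420 times these values. Median lengths were close in the replicates, with 1740, 1884 and 1835 bp on X in replicates 1, 2 and 3. The combined list reached to shorter regions, with a median of 1617 bp and a minimum of 1001 bp, against at least 1301 bp in the replicates. None of the X regions of a replicate exceeded 10 kb, and the longest measured 4153, 7818 and 6476 bp in the 3 lists. The combined list had a single X region above that size, of 11965 bp at the telomere.

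The first comparison set X against both arms of chromosome 2 (2L and 2R) and both arms of chromosome 3 (3L and 3R). Over whole arms, X was less covered than the autosomal arms in each replicate, at 2.10% ± 1.03 on X and 4.45% ± 1.30 on the arms (SD, n = 3 each). The difference, X minus the arms, was -2.04, -2.52 and -2.51 percentage points. An exact two-sided sign-flip permutation test over 3 replicates cannot go below p = 0.25, the value found here, so the values per replicate carry the result. With the 2 Mb nearest the centromere left out of X and of each autosomal arm, the order turned. X was then covered over 0.816%, 2.54% and 2.69% in replicates 1, 2 and 3, against 0.795%, 1.76% and 1.96% on the distal autosomal arms. The gap was 0.021 percentage points in replicate 1 and 0.785 and 0.725 in replicates 2 and 3 (mean 0.51 ± 0.42, SD, n = 3, exact sign-flip permutation test, p = 0.25). X was above the arms in 3 of 3 replicates, but hardly so in replicate 1.

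Numbers of regions gave the same order. X outside its proximal 2 Mb held 4.55, 12.9 and 14.2 regions per Mb, against 4.24, 8.94 and 10.1 on the distal arms. In replicates 2 and 3 this part of X was denser than each single distal arm, the closest being 2R with 10.8 and 12.6 regions per Mb. In replicate 1 the distal 2R, at 5.48 regions per Mb, and the distal 2L, at 4.57, were above X. The whole of X was also more covered than the whole of 3R, by 0.202, 0.930 and 0.780 percentage points (exact sign-flip permutation test, p = 0.25).

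**Figure D1:**
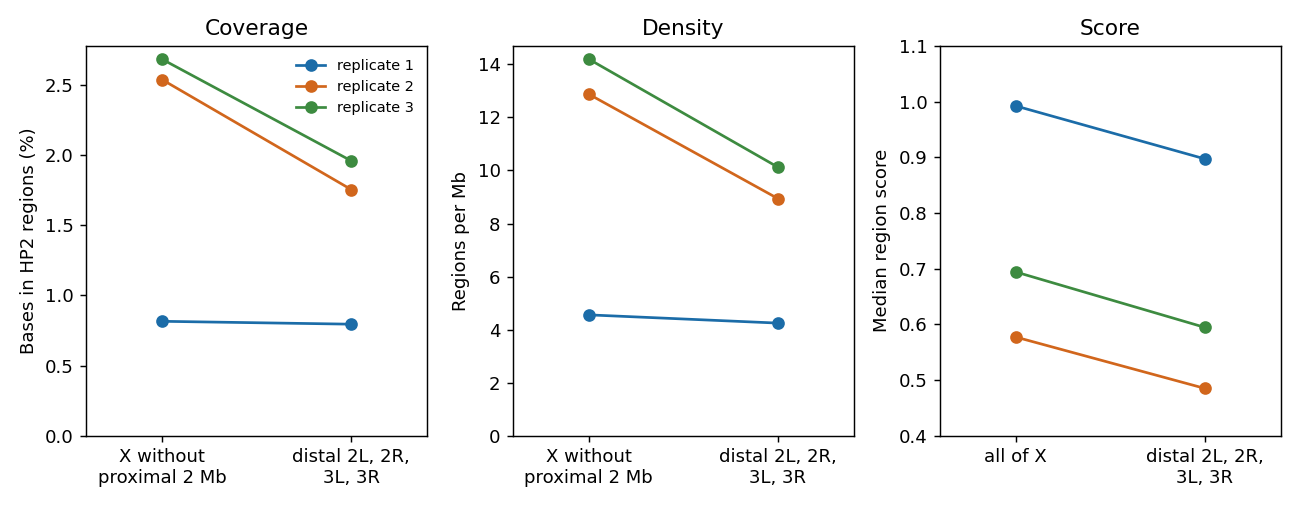
HP2 regions of X (left) and of the distal autosomal arms (right), 1 line per replicate. The panels give the percent of bases in regions and the regions per Mb, both for X without its proximal 2 Mb, and the median region score for all of X on an axis that does not start at 0. The lines of replicates 2 and 3 fall from X to the arms in each panel, and that of replicate 1 is nearly level for coverage (0.816% against 0.795%).

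Along X, coverage was uneven, and the densest bin was the same in the 3 replicates, while bins of middle rank differed more between replicate 1 and the others. Of the 22 full bins of 1 Mb, that from 21 to 22 Mb was the most covered in all 3 replicates, at 3.27%, 6.41% and 5.68% (mean 5.12% ± 1.64, SD, n = 3). Its neighbour from 20 to 21 Mb had the lowest mean, at 0.203%, 0.985% and 0.615% (0.60% ± 0.39, SD, n = 3). It ranked 21st, 22nd and 22nd of the 22 bins in the 3 replicates. By the mean of the replicates, the densest and the thinnest full bin thus lie side by side at the proximal end. The thinnest was that from 8 to 9 Mb in replicate 1 (0.132%). In the combined list it was that from 14 to 15 Mb, at 2.57% against 2.58% from 20 to 21 Mb. Further dense bins lay from 15 to 16 Mb, at 1.26%, 4.92% and 5.25%, from 16 to 17 Mb, at 1.84%, 3.87% and 4.59%, and from 6 to 7 Mb, at 1.26%, 3.86% and 4.13%. The bin from 14 to 15 Mb was thin again, at 0.315%, 1.18% and 0.828%. No full bin lacked regions in any list.

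Bin coverage ranked most alike between replicates 2 and 3 (Spearman's rho 0.91, Pearson's r 0.90 over 22 bins). With replicate 1, rho was 0.72 for replicate 2 and 0.70 for replicate 3. Bins are neighbouring parts of the same chromosome in the same libraries, so no p is attached. Replicate 1 was not reduced evenly. Its coverage was 56.5% of that of replicate 2 in the bin from 3 to 4 Mb and 51.1% from 21 to 22 Mb. It was 10.9% from 17 to 18 Mb and 8.37% from 8 to 9 Mb, where replicate 1 had only 2 and 1 regions.

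**Figure D2:**
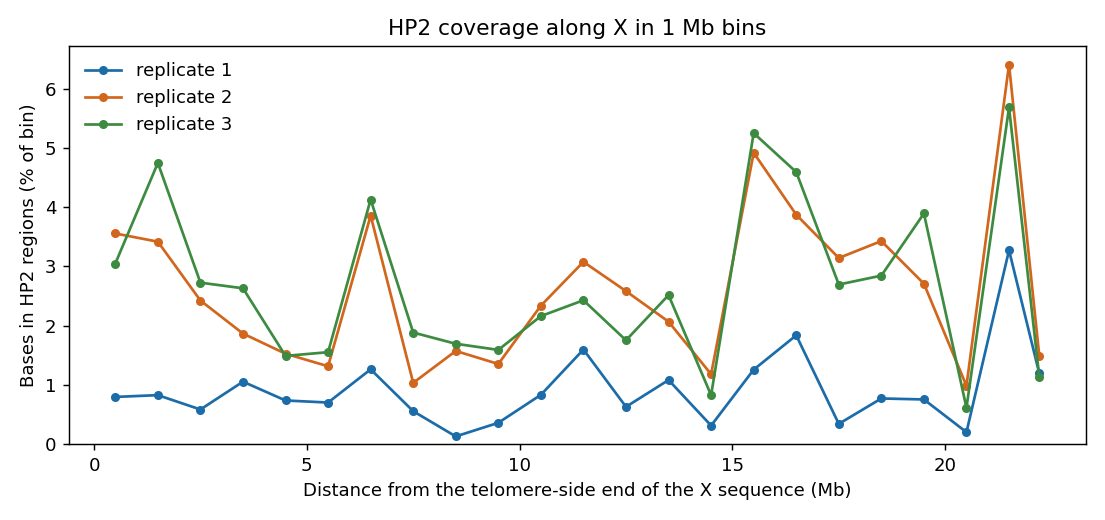
Percent of bases in HP2 regions in 1 Mb bins along X, against distance from the telomere-side end, 1 line per replicate; the last bin is the partial one at the centromere side. In all 3 replicates the curve peaks in the bin from 21 to 22 Mb (3.27%, 6.41% and 5.68%), directly after its lowest or second lowest full bin.

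The second comparison concerned the ends. The terminal 1 Mb at the centromere side was covered over 3.50%, 6.47% and 5.21% in replicates 1, 2 and 3, against 0.791%, 2.46% and 2.62% of the rest of X. The excess was 2.71, 4.00 and 2.60 percentage points (mean 3.10 ± 0.78, SD, n = 3, exact sign-flip permutation test, p = 0.25) and had the same sign in 3 of 3 replicates. In relative terms replicate 1 was the most concentrated there, at 4.42 times the rest of X, against 2.62 and 1.99 times in replicates 2 and 3. This excess did not extend evenly to the end of the sequence. The last 0.5 Mb was covered over 1.01%, 1.69% and 1.35%, which in replicates 2 and 3 lay below the remaining X (2.67% and 2.76%) and in replicate 1 slightly above it (0.909%). Within it, the outermost 20 kb was covered over 6.89%, 17.8% and 16.8%, a window chosen after the positions had been seen.

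In steps of 100 kb, the proximal HP2 regions formed a block. Regions covered 12.5%, 21.6% and 14.3% of the bases from 21.5 to 21.6 Mb, 9.00%, 14.9% and 10.8% from 21.6 to 21.7 Mb, and 5.20%, 15.7% and 14.5% from 21.8 to 21.9 Mb. The step between them, from 21.7 to 21.8 Mb, was covered over 1.64%, 2.75% and 2.89%. On the distal side, the bases from 20.4 to 20.8 Mb held no region in any replicate. The combined list had 6 regions from 20.6 to 20.7 Mb, which were 1065 to 1941 bp long. With limits chosen after these steps had been seen, the 0.5 Mb from 21400001 to 21900000 held 17, 22 and 19 regions. They made up 15.4%, 9.82% and 7.49% of the HP2-covered bases of X in replicates 1, 2 and 3, on 2.23% of its length. Inside this block the median score was 0.997, 0.778 and 0.814, against 0.991, 0.569 and 0.684 in the rest of X, a lead that was small in replicate 1.

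At the telomere the pattern was narrower. The terminal 1 Mb was covered over 0.798%, 3.56% and 3.05%, against 0.917%, 2.60% and 2.72% of the rest. The sign differed between replicates (-0.118, 0.955 and 0.332 percentage points, mean 0.39 ± 0.54, SD, n = 3, exact sign-flip permutation test, p = 0.5), so no excess was shown at that size. In the outermost 20 kb, a window chosen after the positions had been seen, HP2 regions covered 8.03% in replicate 1, 67.6% in replicate 2, 28.0% in replicate 3 and 92.0% in the combined list. Replicate 2 had 4 regions there, which spanned 3609 to 5373, 5678 to 9759, 9958 to 15441 and 15630 to 17817. Replicate 3 had 2, at 3746 to 7810 and at 13094 to 14620, and replicate 1 had 1, from 7838 to 9443. The replicate 1 region lay inside the second region of replicate 2 and just beyond the end of the first region of replicate 3. The combined list joined this stretch into the longest X region, from 3610 to 15574. Its outermost region, from 94 to 1238, was in no replicate list.

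Set beside the other arms, the outermost 20 kb of X was the most covered telomere-side window in replicates 2 and 3 and not in replicate 1. The 4 autosomal arms had 0% in replicate 2 and at most 8.54% in replicate 3, but 2L reached 9.79% in replicate 1. X minus the mean of the 4 arms was 3.85, 67.6 and 23.8 percentage points (exact sign-flip permutation test, p = 0.25). Because the 20 kb window was chosen after the X positions had been seen, this test favours X and gives no independent support. Over the outermost 100 kb the sign of that difference varied, at -2.12, 6.36 and -1.78 percentage points (exact sign-flip permutation test, p = 1). At this size 3L was above X in each replicate. It had 11.6%, 23.5% and 21.2% in replicates 1, 2 and 3, against 1.61%, 13.5% and 5.59% on X. At the centromere side X was the least covered arm over 100 kb, a window also chosen after the positions had been seen. It had 1.38%, 3.55% and 3.37%, against at least 8.59%, 22.6% and 27.7% on the 4 autosomal arms (mean difference from the arms -53.6 ± 7.92 percentage points, SD, n = 3, exact sign-flip permutation test, p = 0.25). Over 20 kb X was not the least covered: 2L had 0% in each replicate, against 6.89%, 17.8% and 16.8% on X. In that window 2R, 3L and 3R were above X in each replicate. The last X region ended 3198 bp from the end of the sequence in replicate 1 and 2266 bp from it in replicate 3, and it ran up to the end in replicate 2 and the combined list. On XHet, the scaffold of X heterochromatin beyond, there were 1, 7, 5 and 14 regions in replicates 1, 2, 3 and the combined list.

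**Figure D3:**
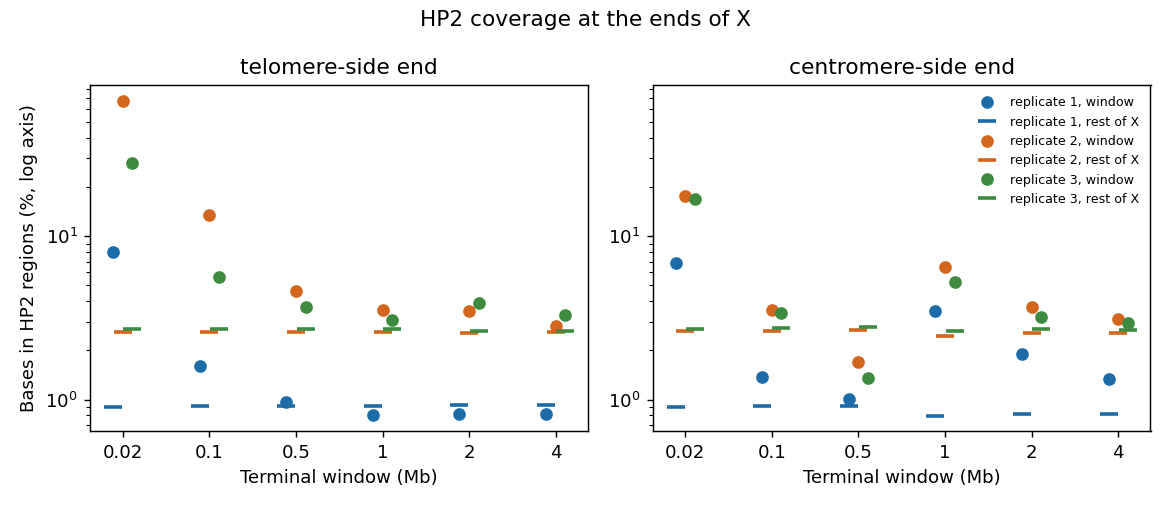
Percent of bases in HP2 regions (log axis) in terminal windows of 0.02 to 4 Mb at the telomere side (left) and centromere side (right) of X. Dots are the windows and short bars the rest of X, coloured by replicate. At the telomere the dots of all 3 replicates stand far above the bars in the smallest window (8.03%, 67.6% and 28.0%) and come close to them from 0.5 Mb on. At the centromere side they also rise at 1 Mb, after a fall at 0.5 Mb to below the bars in replicates 2 and 3.

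Spacing was the next question. The median gap between neighbouring X regions was 128.0 kb in replicate 1, 32.6 kb in replicate 2, 31.0 kb in replicate 3 and 14.0 kb in the combined list. In the replicate lists, but not in the combined list, most X regions stood alone when regions at most 10 kb apart were joined. Of the X regions of replicates 1, 2 and 3, 25 (22.1%), 122 (41.5%) and 118 (37.0%) had a neighbour within 10 kb, against 74.6%, 71.9% and 68.4% of all regions in those lists. In the combined list 418 X regions (63.9%) had such a neighbour, against 74.5% of all. X thus held fewer close neighbours than the lists as a whole. Against the distal autosomal arms the replicates differed in sign. With the proximal 2 Mb left out of X too, the share was 18.3%, 39.5% and 35.9% on X, against 21.3%, 31.2% and 31.7% on the distal arms. The difference was -3.00, 8.36 and 4.20 percentage points (mean 3.19 ± 5.74, SD, n = 3, exact sign-flip permutation test, p = 0.5). X also had more regions per Mb than those arms, by little in replicate 1. Only with its proximal 2 Mb included was X above the distal arms in all 3 replicates, by 0.847, 10.3 and 5.33 percentage points.

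Clusters were small. Replicates 1, 2 and 3 had 3, 15 and 9 X clusters of 3 or more regions, with at most 3, 5 and 5 regions each. The combined list had 56, which held 250 of its 654 X regions. Its largest cluster ran from 21581952 to 21687110, a span of 105.2 kb inside the proximal block. It contained 18 regions, of which 4 were in all 3 replicate lists, and the same span held 7, 7 and 5 regions in replicates 1, 2 and 3. The second, from 1258494 to 1305016, contained 11 regions over 46.5 kb. Replicate 1 had none there, replicate 2 had 5 and replicate 3 had 4. The third, from 21783502 to 21829216, contained 10 regions over 45.7 kb and again lay in the proximal block, with 3, 5 and 2 regions in the replicates. In each of the 3 replicates, another small cluster of 3 or 4 regions appeared at nearly the same place, picked out after its positions had been seen. It ran from 16206154 to 16220671 in replicate 1, from 16206047 to 16228500 in replicate 2 and from 16206175 to 16228369 in replicate 3.

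Empty stretches were longest in replicate 1, whose widest gap was 1198 kb, from 8304282 to 9501980. The same interval held 9, 11 and 24 regions in replicate 2, replicate 3 and the combined list. The widest gaps were 598.7 kb in replicate 2, from 7202774 to 7801469, and 788.1 kb in replicate 3, from 20116499 to 20904586. In the combined list the 3 widest were 315.0 kb (from 14142603 to 14457617), 289.5 kb (from 9162031 to 9451503) and 284.1 kb (from 11812695 to 12096805). Each of these still held 1 or more regions of single replicates: 2 of replicate 1 and 1 of replicate 3 in the first, and 1 of replicate 3 in each of the others.

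**Figure D4:**
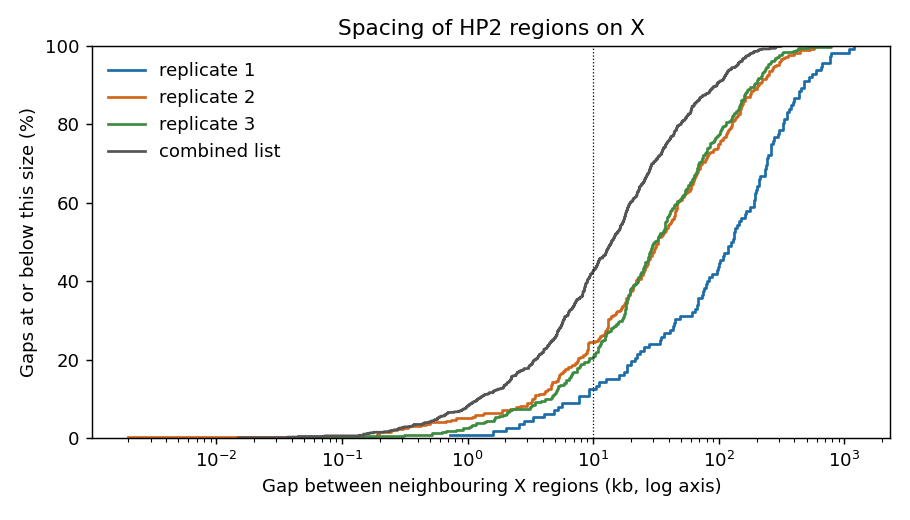
Cumulative percent of gaps between neighbouring HP2 regions on X by gap size (log axis), for the 3 replicates and the combined list; the dotted line marks 10 kb. The curves of replicates 2 and 3 nearly coincide (medians 32.6 and 31.0 kb), replicate 1 lies to the right (128.0 kb) and the combined list to the left (14.0 kb).

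The third question was how far X regions recurred. Of the 113 X regions of replicate 1, 82 (72.6%) overlapped a region of replicate 2 by at least 1 bp and 77 (68.1%) a region of replicate 3, against 78.5% and 75.0% of all replicate 1 regions. Of the replicate 2 regions on X, 70.1% were found in replicate 3 and 27.2% in replicate 1, against 73.0% and 42.4% of all. Of the replicate 3 regions on X, 64.6% were found in replicate 2 and 24.1% in replicate 1, against 78.6% and 42.2% of all. X therefore lay below the whole lists in each direction. The comparison with the distal autosomal arms kept the proximal 2 Mb of X, which is left out of those arms. Against them, X was higher for replicate 1 regions, of which 61.4% on those arms were found in replicate 2 and 61.2% in replicate 3. In the other 4 directions X minus the distal arms lay between -1.58 and 2.48 percentage points. Averaged over the 6 directions, the share was 54.5% on X and 51.4% on the distal arms. With 50% overlap both ways it was 47.2% on X and 47.8% on the distal arms, so the order depended on the overlap rule. For replicate 1 regions found in replicates 2 and 3, that rule gave 58.4% and 57.5% on X. The distal arms had 55.6% in both directions. Where regions matched with at least 50% overlap both ways, their midpoints on X differed by a median of 81.8 bp between replicates 1 and 2, 120.5 bp between 1 and 3 and 99.8 bp between 2 and 3. Scores of these pairs correlated across regions with Spearman's rho of 0.45 (66 pairs), 0.34 (65 pairs) and 0.64 (190 pairs) for the same pairs of replicates. On the distal arms rho was 0.47, 0.55 and 0.65. The regions of a list share a library, so these values have no p.

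In the combined list, 74 regions over the whole of X (11.3%) were found in all 3 replicate lists. The share was 21.0% of all combined regions and 11.4% of those on the distal arms. Another 140 were found in 2 lists, 152 in 1 list and 288 (44.04%) in none. The share in none was 33.5% of all combined regions and 44.5% of those on the distal arms, close to X. Replicate 1 limited the first number: 203 X regions were in both other lists, that is 31.0% without replicate 1. With 50% overlap both ways, 53 X regions (8.10%) were found in all 3 lists, against 8.73% of all combined regions. Median length rose with the number of lists, though the ranges overlapped and a longer region has more bases that can overlap. It was 1211 bp for X regions in no replicate list, 1705 bp in 1, 2007 bp in 2 and 2548 bp in all 3. No replicate list held a region shorter than 1301 bp away from chromosome ends, whereas 201 X regions of the combined list were shorter than that, and 178 of these were in no replicate list. Being found in all 3 lists means overlap with the combined region, and the regions of the replicates need not overlap each other. The 74 recurrent regions were spread over 21 of the 22 full bins, with 9 from 16 to 17 Mb, 9 from 21 to 22 Mb and 0 from 14 to 15 Mb. Their median gap was 163.5 kb, and 15 of them had another within 10 kb.

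**Figure D5:**
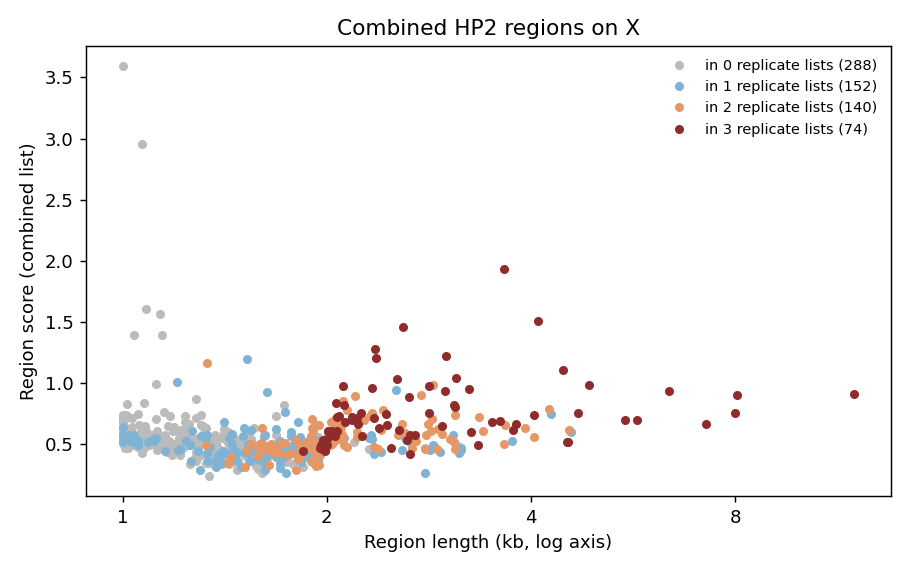
Length (kb, log axis) and score of the 654 combined X regions, coloured by the number of replicate lists that hold an overlapping region. Regions in all 3 lists are at least 1845 bp long, and the pair of highest scores belongs to regions of 1001 and 1069 bp that no replicate list holds.

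The strongest recurrent HP2 region on X lay from 15826590 to 15830238, with a combined score of 1.93. The score is the authors' value per region on an unstated scale, and it is compared only within a list. This site ranked 1st, 1st and 2nd among the X regions of replicates 1, 2 and 3, and its limits in the 3 lists, 15826706 to 15829517, 15826658 to 15829650 and 15826696 to 15829486, differed by at most 48 bp at the start and 164 bp at the end. The second, from 21500186 to 21504286 (score 1.51), lay in the proximal block and ranked 6th, 2nd and 4th. The third, from 15653722 to 15656312 (score 1.46), ranked 25th, 3rd and 6th. It lay 170.3 kb from the first. Next came regions from 7801282 to 7803634 (score 1.28), from 11041490 to 11044484 (score 1.23) and from 12475978 to 12478342 (score 1.21), each of them ranked within the first 15 X regions of every replicate. The region from 13655146 to 13657686 (score 1.04) ranked 17th, 13th and 26th. The remaining 3 of the first 10 were in the proximal block. They spanned 21843068 to 21847532 (score 1.11), 21629158 to 21632260 (score 1.04) and 21796552 to 21801418 (score 0.98). Their ranks were less even, for instance 73rd, 10th and 5th for the last of them. In that last region the 3 replicates did not mark the same place: replicate 1 had 21795297 to 21796935, replicate 2 had 21796906 to 21799650 and replicate 3 had 21800534 to 21802547. Of these 10 sites, 6 thus lay in the middle of the arm, between 7.80 and 15.83 Mb from the telomere-side end, and the site at 21.50 Mb brought those in the proximal block to 4.

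Several higher scores belonged to regions without a match in the other lists. The top scores of the combined list on X, 3.59 from 15167874 to 15168874 and 2.95 from 21646032 to 21647100, belonged to regions of 1001 and 1069 bp found in none of the replicate lists. Both are shorter than 1301 bp, the shortest replicate region away from chromosome ends. Their absence from those lists therefore does not show that the replicates lacked signal there. The top X region of replicate 3 (score 2.30), from 21759502 to 21761020, was not in the combined list. After the telomeric region, the longest combined X regions ran from 4823714 to 4831752 (8039 bp, score 0.90) and from 21594478 to 21602456 (7979 bp, score 0.75). Both were found in all 3 lists. The span from 4823714 was 1 region of 7818 bp in replicate 2 and was split in 2 in each of replicates 1 and 3.

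The median score on X was higher than that on the distal autosomal arms in each of the 3 replicates. Each difference was taken within a list. With the scale unstated, the sizes cannot be compared between lists, and a mean over lists only summarises them. The median was 0.992, 0.577 and 0.694 on X in replicates 1, 2 and 3, against 0.897, 0.485 and 0.594 on the distal arms. The difference was 0.095, 0.092 and 0.100, a mean of 0.096 ± 0.004 (SD, n = 3), and positive in 3 of 3 replicates (exact sign-flip permutation test, p = 0.25). It was 0.082 in the combined list. With the proximal 2 Mb left out of X as well, the difference was 0.093, 0.084 and 0.091. At the 10th, 25th and 90th percentiles the lead ranged from 0.041 (10th, replicate 1) to 0.152 (90th, replicate 3). Against the whole lists, in contrast, X scores were not high: 50.4%, 24.1% and 32.0% of X regions in replicates 1, 2 and 3, and 36.4% in the combined list, scored above the median of their list, against 50.0% of all regions. Each distal arm gave the same sign: X led 2L, 2R, 3L and 3R by 0.068 to 0.113 in the single replicates. The lead was also present at each length, with 0.076 ± 0.007 for regions under 1.5 kb, 0.088 ± 0.013 for those of 1.5 to 2 kb and 0.084 ± 0.010 for longer ones (SD, n = 3 each). Median length had no steady difference: it was 1740, 1884 and 1835 bp on X and 1744, 1863 and 1852 bp on the distal arms (mean difference 0.17 ± 19.3 bp, SD, n = 3, exact sign-flip permutation test, p = 1). Among regions at or above the median score of their whole list, which are selected on the value compared, the difference was -0.018.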

How the data were processed

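The files were lists of HP2-enriched regions of 3 ChIP libraries and of their replicate set, with groups and replicate numbers from the labels. Inputs served the authors' calls, per the labels, and were not analysed separately. Alignment used Bowtie 0.12.7, per the submitters' processing notes, and coordinates follow FlyBase release 5, per the file headers. No source used here gives the caller, threshold or filters. Each region carries a score, deposited with no stated scale, so it was compared only within a list. Region ends past the header length of a chromosome (3, 3 and 2 in the replicates, 3 in the combined list) were set to it.

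Coverage is the percent of bases in regions. Proximal means the 2 Mb nearest the centromere, overlap was at least 1 bp, and regions at most 10 kb apart formed a cluster. Differences were taken within each replicate and tested by exact two-sided sign-flip permutation. Regions were neither resampled nor treated as replicates in any test. A binomial interval that takes regions as independent served only to sort alternatives for the share found in all 3 lists. The overlap, coverage and cluster code was tested on simulated lists. Named regions were the 10 highest-scoring combined X regions found in all 3 lists, the 3 longest, the first and last, the 3 largest clusters, the 3 widest gaps and the extreme bins; others named were chosen after their values were seen. The X regions and these rules were chosen with earlier results of these data known. Genes and sequences at the regions were not analysed here. Python 3.11.15, numpy 2.4.6, scipy 1.17.1 and matplotlib 3.10.9 were used.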

Additional observations from a re-analysis of the deposited data

How the results depend on the processing

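Of 79 alternatives for 10 results on X, 62 were counted as unchanged. For tested results this meant the same direction of the mean, even where replicates differed in sign, as at the telomere side. Other values had to stay within the SD, and the region number within a fixed factor. The share in all 3 lists had to stay within a 95% binomial interval over the 654 regions (8.99% to 14.0%). X minus the long arms in coverage turned to 0.510 percentage points without the proximal 2 Mb of each arm and to 0.637 against 3R. The excess at the centromere side turned to -0.763 with 0.5 Mb, and the score lead of X to -0.018 among regions at or above the median score of their list, a selection on that value. That selection also left 76.7 X regions, 0.787% coverage, 20.7% with a neighbour within 10 kb and 24.3% of combined X regions in all 3 lists. The combined list gave 654 regions, 5.26% coverage and 63.9% with a neighbour. It held 85.8%, 100% and 84.6% of the X regions of replicates 1, 2 and 3, a mean of 90.2%. Joining at 5, 20 and 50 kb gave 20.1%, 51.0% and 69.5% by construction, and 50% overlap both ways left 8.10% in all 3 lists. Leaving out a replicate moved the share of combined X regions in all remaining lists to between 11.9% and 31.0%, and the telomere-side difference to between 0.107 (without replicate 2) and 0.644 percentage points. Windows of 20 and 100 kb, length classes, the block and X without its proximal 2 Mb for spacing and score were chosen after seeing the data. No paired analysis was possible because the input libraries, which share the replicate numbers, have no values of their own here; differences between chromosomes were taken within each replicate. Unknown depth means that a region missing from a list may be undetected.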
